A study of Mus musculus with 20 samples.

Results

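The thrombin receptor and plasminogen activation genes comprise 9 genes chosen by name: F2r, F2rl1, F3, Tfpi, Thbd, Plat, Plau, Plaur and Serpine2. They are 9 of the 54838 genes counted, and each matched 1 Ensembl gene. They were measured by 3' mRNA sequencing (QuantSeq) of whole ovaries from 20 female mice, with 5 libraries in each of 4 groups. The labels give an age of 77 days, and the study states 77 ± 5 days at sampling. Ctrl mice came from an unselected line, which the labels give the genotype WT, and FL1 mice from a line of the same outbred founders that was selected over the long term for high fertility. The labels name no engineered allele or treatment in either line, and each library stands for 1 animal in estrus or diestrus as set by vaginal cytology. Fat, tunica albuginea and oviduct were removed from the ovaries, and in estrus the ovulated cumulus-oocyte complexes were taken out with the oviduct and are not part of the sample.

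Tissue factor (F3) on the cell surface starts the clotting cascade that ends in thrombin and fibrin, and Tfpi blocks this first step. Thrombin also signals to cells by cleaving protease-activated receptors, of which F2r encodes the main thrombin receptor, and Thbd binds thrombin and turns it towards activation of the anticoagulant protein C. Tissue-type (Plat) and urokinase-type (Plau) plasminogen activator convert plasminogen to plasmin, which dissolves fibrin and matrix, Plaur holds urokinase on the cell, and Serpine2 (protease nexin-1) inhibits thrombin and both activators. In the ovary the activators are known for their part at the follicle wall around ovulation.

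In FL1 ovaries F2r and Tfpi were weaker and Serpine2 was stronger expressed than in ctrl in diestrus, and Tfpi was also weaker expressed in estrus. The F2r call held in all 10 fits that left out 1 library. The Serpine2 call and each of the Tfpi calls were near the threshold and held in 2 of 10 such fits. Plat and F3 were stronger expressed in estrus than in diestrus in FL1 mice, by 2.97-fold and 3.88-fold. Thbd and Plau did not pass the test in any comparison. F2rl1 and Plaur lay near the limit of detection.

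Sequences before the start site are shown for the 4 genes with a difference between lines or stages for which RefSeq promoters were at hand (GRCm38.p6). RefSeq promoters matched 5 of the 9 genes. Each window runs from 250 to 32 bases before the RefSeq start and holds 219 bases, 5′ to 3′ on the strand of the gene, and avoids annotated exons of that gene. Capitals mark motifs found on either strand. The TATA box was searched as TATAAA and the GC box as GGGCGG. The AP-1 motif was searched as TGANTCA. The CRE was searched as TGACGTCA. The CCAAT box was searched by the letters of its name, and neighbouring GC boxes can overlap.
F2r, chr13:95618498-95618716, minus strand: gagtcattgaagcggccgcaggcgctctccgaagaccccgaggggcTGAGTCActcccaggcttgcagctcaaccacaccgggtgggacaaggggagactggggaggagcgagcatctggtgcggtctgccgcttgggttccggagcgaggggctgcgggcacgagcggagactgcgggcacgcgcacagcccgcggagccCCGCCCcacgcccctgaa
Tfpi, chr2:84476791-84477009, minus strand: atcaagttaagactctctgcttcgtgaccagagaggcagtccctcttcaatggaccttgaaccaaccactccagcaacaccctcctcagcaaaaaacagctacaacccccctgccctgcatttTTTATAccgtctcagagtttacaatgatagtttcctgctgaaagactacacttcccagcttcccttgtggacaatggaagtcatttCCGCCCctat
Serpine2, chr1:79858697-79858915, minus strand: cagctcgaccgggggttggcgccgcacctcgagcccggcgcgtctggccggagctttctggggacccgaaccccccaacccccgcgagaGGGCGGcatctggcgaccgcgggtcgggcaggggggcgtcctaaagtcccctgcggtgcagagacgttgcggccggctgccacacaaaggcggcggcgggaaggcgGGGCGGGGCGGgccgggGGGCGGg
F3, chr3:121723287-121723505, plus strand: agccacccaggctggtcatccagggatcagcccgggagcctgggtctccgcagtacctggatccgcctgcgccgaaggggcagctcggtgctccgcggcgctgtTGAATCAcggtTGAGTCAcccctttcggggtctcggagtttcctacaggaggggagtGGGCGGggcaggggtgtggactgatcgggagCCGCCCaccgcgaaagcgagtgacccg
The windows differ in base composition and matches. GC content was 70.8% for F2r, 47.9% for Tfpi, 77.6% for Serpine2 and 68.0% for F3. The Serpine2 window held 4 GC boxes, the F3 window held 2 AP-1 matches and 2 GC boxes, the F2r window 1 AP-1 match and 1 GC box, and the Tfpi window 1 TATA box and 1 GC box. RefSeq gives Tfpi another start, whose window (chr2:84474206-84474424, not shown) had a GC content of 54.3%, 1 GC box and no TATA box. Of 32851 RefSeq windows of the same length, 28.3% held a GC box, 6.08% an AP-1 match, 9.92% a TATA box, 30.9% a CCAAT box and 1.13% a CRE. These are matches of letters, and binding was not measured. The last bases before the start were not searched, so a TATA box or other motif there would be missed. An annotated exon of Gm43823 on the opposite strand overlaps the F3 window. The RefSeq start used for Serpine2 (79858665) lies inside the gene as annotated in GENCODE, which reaches to 79861180 on the minus strand. The Serpine2 window thus lies within that annotated gene.

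The libraries held 5991223 to 10352718 counts, with a median of 6957533. Ovarian markers were present in all of them: summed CPM (counts scaled to a common library size) were 10068 to 37048 for 6 luteal markers, 1198 to 3581 for 7 granulosa markers and 131 to 481 for 6 oocyte markers, against 0.784 to 4.48 for 4 markers of oviduct epithelium. Ctrl estrus replicate 5 stood apart. Its mean correlation with the other libraries of its group (Pearson's r of log2 CPM) was 0.937, while the other 19 libraries had 0.954 to 0.971 within their groups. Its granulosa markers summed to 1198 CPM against 2039 to 3036 in the other 4 ctrl estrus libraries, its endothelial markers to 422 against 247 to 301, and its fat markers to 106 against 20.7 to 40.7. Its luteal markers (26635 against 10068 to 21365) also summed above the other 4, as did its theca, periovulatory, erythrocyte and surface epithelium markers. Its oocyte markers (131 against 197 to 300) and fibroblast markers summed below them. Calls of members that it changed, and the larger shifts among their other values, are also given without it. In whole ovaries, fewer cells of a type and less RNA per cell cannot be told apart.

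Does the thrombin receptor differ between the lines? F2r in diestrus was 76.7, 122, 113, 85.4 and 182 CPM in the ctrl libraries and 53.0, 70.8, 54.4, 36.6 and 65.3 CPM in the FL1 libraries. Every FL1 library lay below every ctrl library, although the highest FL1 and the lowest ctrl value lay close together. The mean was 116 ± 41.5 CPM in ctrl and 56.0 ± 13.2 CPM in FL1 (SD, n = 5). F2r was weaker expressed in FL1 with a log2FC of -1.05 ± 0.22 (SE) at an adjusted p of 0.014 in the quasi-likelihood test of edgeR, and it passed in all 10 fits that left out 1 library and in all 7 other alternatives.

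In estrus F2r was 120, 84.1, 90.0, 115 and 70.8 CPM in ctrl and 62.5, 59.3, 71.3, 78.9 and 93.3 CPM in FL1. The ranges overlapped. The log2FC was -0.40 ± 0.16 with an adjusted p of 0.221, and -0.48 with an adjusted p of 0.0948 without ctrl estrus replicate 5. The line-by-stage interaction, which tests whether the line difference was unequal between the stages, gave a log2 value of 0.65 ± 0.29 for F2r (estrus minus diestrus, adjusted p = 0.377), so that a stronger line difference in diestrus was not established. Between the stages F2r had a log2FC of -0.27 ± 0.22 in ctrl (adjusted p = 0.626) and 0.39 ± 0.16 in FL1 (adjusted p = 0.105). Its group means ran from 116 CPM in ctrl diestrus over 96.0 in ctrl estrus and 73.1 in FL1 estrus to 56.0 in FL1 diestrus.

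F2rl1 encodes protease-activated receptor 2, which responds to trypsin-like proteases and to the complex of tissue factor with its clotting factors. It had 0 to 21 counts per library, too few for the test in any comparison. The highest values were 2.04 CPM in FL1 estrus, 2.05 in FL1 diestrus, 1.99 in ctrl diestrus and 1.05 in ctrl estrus, and 1 FL1 library of each stage had no count. A difference between groups was not detectable at this depth. F2rl1 lies on chromosome 13 near F2r, at 95511732 to 95525227, and F2r at 95601803 to 95618487 (GRCm38, minus strand for both).

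Tfpi, the inhibitor of the tissue factor pathway, lies on chromosome 2 at 84432855 to 84476775. In estrus it was 82.3, 78.4, 102, 82.6 and 57.9 CPM in ctrl and 50.7, 49.8, 48.8, 65.4 and 56.9 CPM in FL1. Among the ctrl libraries the lowest value was that of replicate 5, which lay within the FL1 range, and the other 4 ctrl libraries lay above all FL1 libraries. Tfpi was weaker expressed in FL1 with a log2FC of -0.58 ± 0.14 (adjusted p = 0.0421). This call was near the threshold: without ctrl estrus replicate 5 the log2FC was -0.67 (adjusted p = 0.00513), it also held without FL1 estrus replicate 4, and leaving out any one of the other 8 libraries gave adjusted p-values of 0.0721 to 0.114.

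In diestrus Tfpi was 64.8, 55.7, 60.3, 51.3 and 56.2 CPM in ctrl and 52.3, 46.9, 39.2, 37.6 and 43.0 CPM in FL1. Only FL1 replicate 1 reached into the ctrl range. Tfpi was weaker expressed in FL1 with a log2FC of -0.40 ± 0.11 (adjusted p = 0.0489). Here too the call was near the threshold, since it held in 2 of the 10 fits without 1 library, those without ctrl diestrus replicate 4 or FL1 diestrus replicate 1, and the adjusted p reached 0.128 in the others.

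Between the stages, Tfpi had a log2FC of 0.48 ± 0.13 in ctrl (estrus against diestrus, adjusted p = 0.0708) and 0.31 ± 0.11 in FL1 (adjusted p = 0.0762). Without ctrl estrus replicate 5 the ctrl value was 0.57 with an adjusted p of 0.0115, and without FL1 diestrus replicate 1 the FL1 value was 0.38 with an adjusted p of 0.0379. The group means were 80.6 ± 15.7 CPM in ctrl estrus, 57.7 ± 5.12 in ctrl diestrus, 54.3 ± 6.97 in FL1 estrus and 43.8 ± 5.95 in FL1 diestrus (SD, n = 5). Mean levels in FL1 were thus lower than in ctrl in each stage, and ctrl diestrus and FL1 estrus lay close together with overlapping ranges.

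Serpine2, the inhibitor of thrombin and of both plasminogen activators, lies on chromosome 1 at 79794197 to 79861180. In diestrus it was 748, 449, 533, 627 and 507 CPM in ctrl and 786, 840, 717, 882 and 818 CPM in FL1. Only ctrl replicate 1 reached into the FL1 range. Serpine2 was stronger expressed in FL1 with a log2FC of 0.49 ± 0.12 (adjusted p = 0.0391), a 1.40-fold difference. It held without ctrl diestrus replicate 1 or 4, and leaving out any one of the other 8 libraries gave adjusted p-values of 0.0509 to 0.101. It passed in 6 of 7 other alternatives and was lost in 1 fit of all 20 libraries (adjusted p = 0.0529).

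In estrus Serpine2 was 760, 566, 636, 629 and 543 CPM in ctrl and 1087, 1025, 649, 882 and 756 CPM in FL1. FL1 replicates 3 and 5 lay within the ctrl range and the other 3 above it. The log2FC was 0.48 ± 0.15 with an adjusted p of 0.115, close in size to that in diestrus, and the interaction was -0.01 ± 0.20 (adjusted p = 0.995). The line difference in estrus passed in 1 of 7 other alternatives, DESeq2 (adjusted p = 0.039). Serpine2 differed little between the stages, with a log2FC of 0.13 ± 0.14 in ctrl (adjusted p = 0.75) and 0.12 ± 0.12 in FL1 (adjusted p = 0.545).

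**Figure D1:**
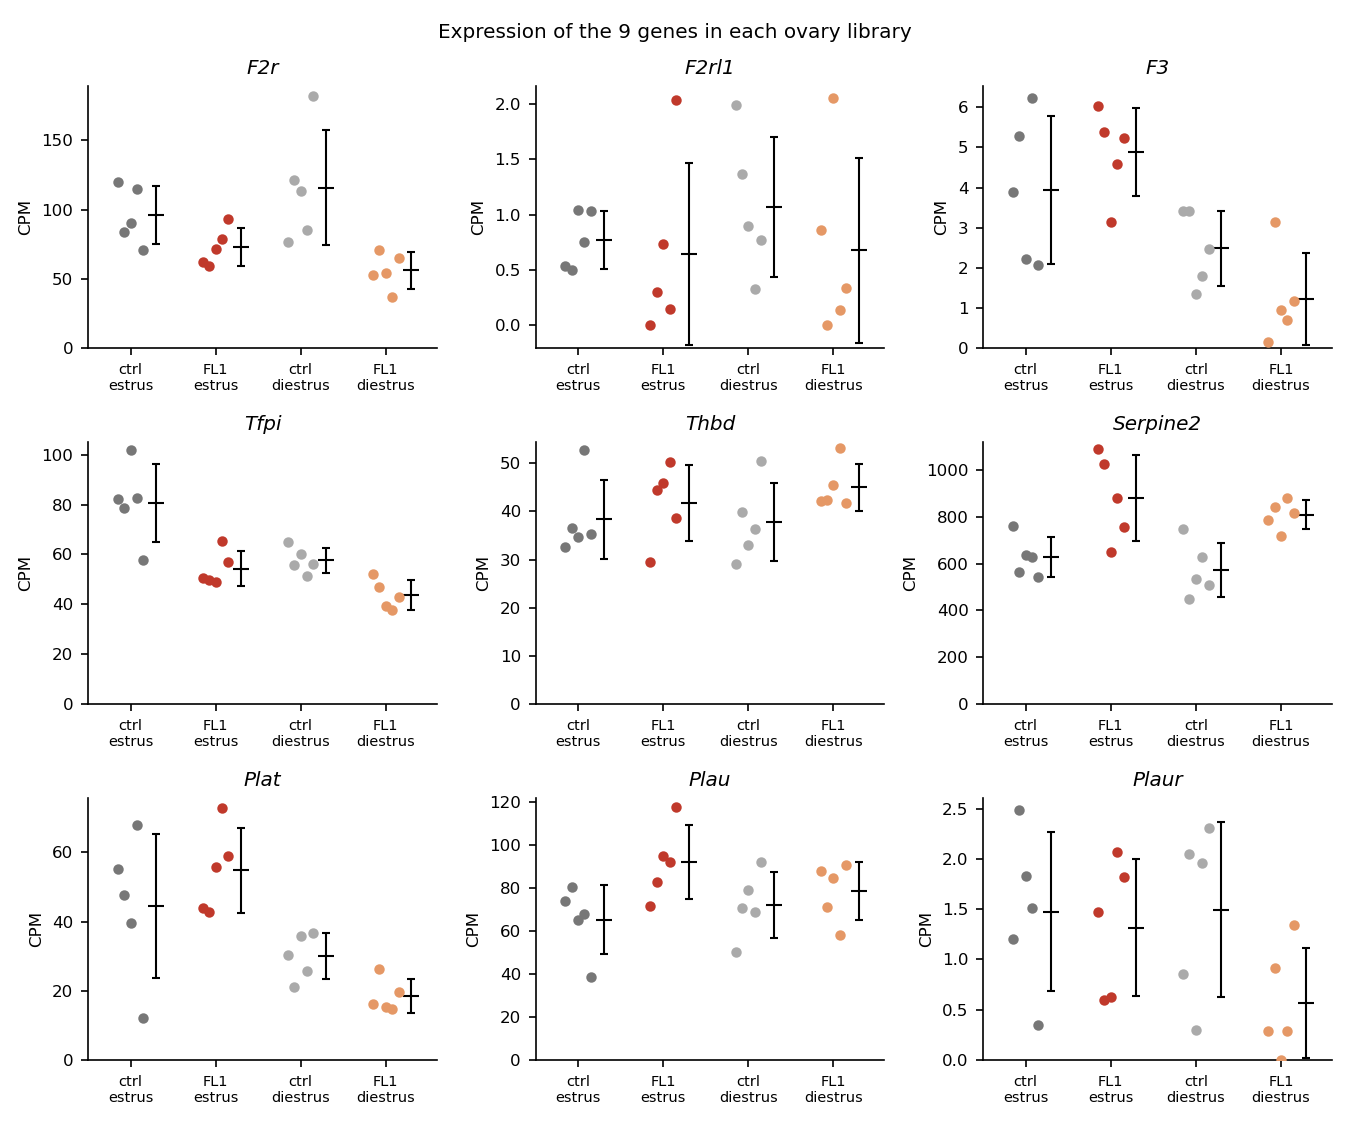
Expression of the 9 genes in CPM (y axis, linear, a scale of its own for each gene) in the 4 groups of line and stage (x axis), with 1 point per library and a bar for the mean ± SD of 5 libraries. F2r in diestrus separates the lines, Plat and F3 separate the stages in FL1, and F2rl1 and Plaur stay below 3 CPM in every library.

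Together, 1 of 8 tested members (Tfpi, weaker) was differentially expressed between the lines in estrus, against 2.33% of 13374 genes (1.07% stronger and 1.26% weaker in FL1), and 3 of 7 in diestrus, against 4.11% of 13259 genes (2.29% stronger and 1.82% weaker). Median log2FC of the members tested was 0.20 in estrus and -0.40 in diestrus, and that of all tested genes was -0.01 in both stages. The ranges of the lines did not overlap for 0 members in estrus (4.85% of genes tested) and for F2r in diestrus (5.4%). By edgeR, 0 of 8 members tested had a line-by-stage interaction, against 0.0565% of 14154 genes. The unadjusted edgeR p was 0.0347 for F2r and 0.0205 for Plat, so that 2 of 8 members were under 0.05, against 1654 of 14154 genes. DESeq2 called 0 members, against 148 of 15534 genes. Before adjustment 3 members were under 0.05 by DESeq2, as were 1956 genes. Limma-voom called 0 members, against 3 of 14154 genes.

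The line difference was also averaged over both stages in a single fit of all 20 libraries, a comparison added after the data were seen. It uses the libraries of the comparisons above and is no independent support for them. F2r (log2FC -0.73 ± 0.15, adjusted p = 0.00246) and Tfpi (-0.49 ± 0.09, adjusted p = 0.000892) were weaker and Serpine2 (0.49 ± 0.10, adjusted p = 0.00267) was stronger expressed in FL1, which is 3 of 8 members tested against 7.56% of 14154 genes (3.7% stronger and 3.86% weaker). All 3 passed in each of the 20 fits without 1 library and in all 6 other alternatives, with the highest adjusted p of 0.0064 for F2r, 0.00268 for Tfpi and 0.0069 for Serpine2 among the fits without 1 library. For Plau the averaged log2FC was 0.30 ± 0.12 (adjusted p = 0.157), for Thbd 0.18 ± 0.11 (adjusted p = 0.4), for Plat -0.21 ± 0.20 (adjusted p = 0.641, and -0.32 with 0.171 without ctrl estrus replicate 5), for F3 -0.36 ± 0.32 (adjusted p = 0.606) and for Plaur -0.77 ± 0.45 (adjusted p = 0.358).

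Markers of the cell types that could carry these genes were set beside the line differences. Of 6 endothelial markers, 0 were differentially expressed between the lines in either stage. Their summed level was 247 to 422 CPM in ctrl and 207 to 278 CPM in FL1 in estrus, and 282 to 410 and 324 to 420 CPM in diestrus. The median log2FC of the endothelial list was -0.37 in estrus and 0.15 in diestrus. Of 4 smooth muscle markers and 4 fibroblast markers, 0 passed in either stage. Of the 6 granulosa markers tested, Foxl2 was stronger expressed in FL1 in diestrus, where the summed granulosa level was 2330 to 3469 CPM in ctrl and 2381 to 3581 CPM in FL1. Platelet markers summed to 18.3 to 31.5 CPM in ctrl and 9.71 to 18.3 CPM in FL1 in diestrus, and to 16.9 to 38.1 and 17.0 to 22.6 CPM in estrus, with 0 of the 2 or 3 tested passing in either stage, while Pf4 was weaker expressed in FL1 averaged over both stages. The macrophage markers did not move in 1 direction. Of 5, Lyz2 was stronger expressed in FL1 in both stages and Cd68 in diestrus, Csf1r was weaker averaged over both stages (log2FC -0.57, adjusted p = 0.0171), and the median log2FC of the list was -0.42 in estrus and -0.02 in diestrus. No marker of these 6 lists was at 0 in every library of a group. The part of cell composition in the line differences was not tested.

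**Figure D2:**
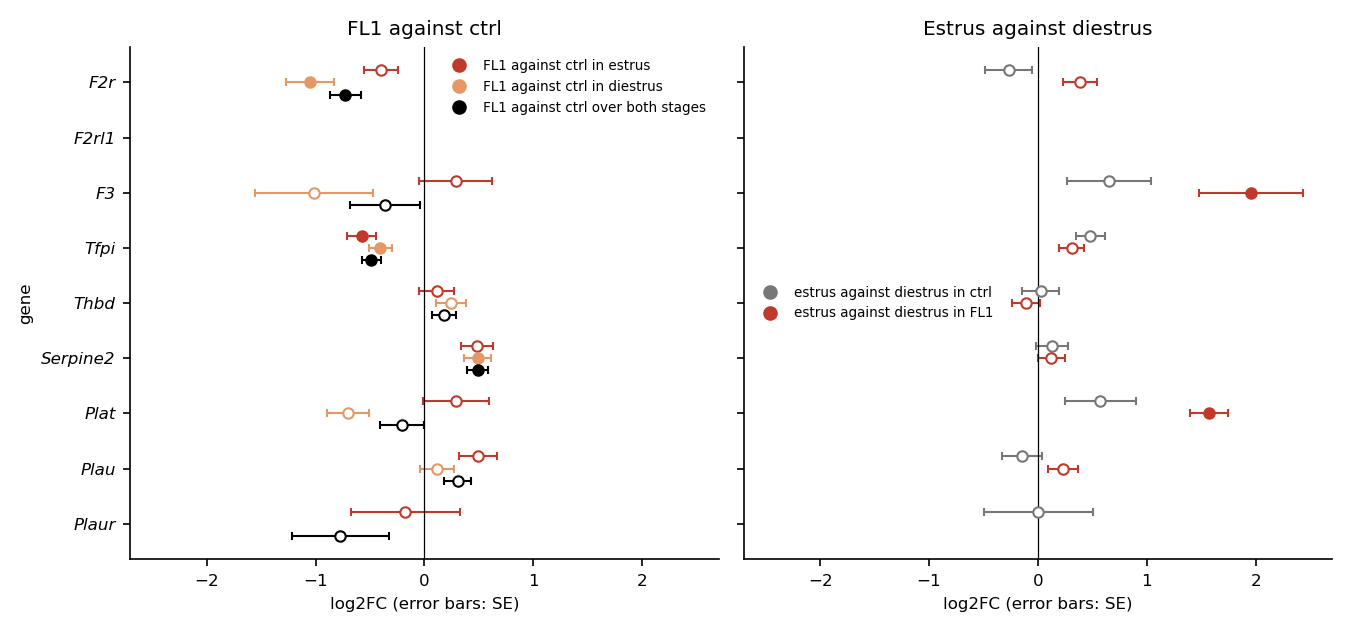
Log2FC (x axis, with SE as error bars) of each gene (y axis) for FL1 against ctrl in estrus, in diestrus and averaged over both stages (left) and for estrus against diestrus in each line (right), with filled symbols for an adjusted p of at most 0.05 and no symbol where too few counts were present for the test. F2r and Tfpi lie left of 0 and Serpine2 right of 0 in all 3 line comparisons, and Plat and F3 have the largest stage differences of the tested genes, in FL1.

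Plat, tissue-type plasminogen activator on chromosome 8 (22757727 to 22782844), changed with the stage in FL1. It was 43.8, 42.8, 55.9, 72.7 and 58.9 CPM in FL1 estrus and 16.3, 26.4, 15.3, 14.6 and 19.6 CPM in FL1 diestrus. Every estrus library lay above every diestrus library. Plat was stronger expressed in estrus with a log2FC of 1.57 ± 0.18 (adjusted p = 1.57e-05), a 2.97-fold difference that passed in all 10 fits without 1 library and in all 7 other alternatives.

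In ctrl Plat was 55.2, 47.8, 39.6, 67.8 and 12.1 CPM in estrus and 30.4, 21.2, 36.0, 25.6 and 36.6 CPM in diestrus. Replicate 5 in estrus had the lowest value of all 20 libraries, while the other 4 estrus libraries lay above all diestrus libraries. With all libraries the log2FC was 0.57 ± 0.32 (adjusted p = 0.444), and without ctrl estrus replicate 5 it was 0.81 ± 0.18 (adjusted p = 0.031). The interaction was 0.99 ± 0.40 (adjusted p = 0.319), and 0.76 ± 0.27 (adjusted p = 0.243) without that library. The larger stage difference in FL1 than in ctrl therefore did not pass its own test.

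Between the lines Plat had a log2FC of -0.70 ± 0.19 in diestrus (adjusted p = 0.0534), with ctrl replicates 2 and 4 below the highest FL1 library, replicate 2. It passed without ctrl diestrus replicate 2 (log2FC -0.80, adjusted p = 0.0318) or FL1 diestrus replicate 2 (-0.87, adjusted p = 0.0152), and by DESeq2 (adjusted p = 0.0142). In estrus the log2FC was 0.29 ± 0.31 (adjusted p = 0.711), and 0.06 ± 0.17 without ctrl estrus replicate 5 (adjusted p = 0.905). The means were 54.8 ± 12.3 CPM in FL1 estrus, 44.5 ± 20.9 in ctrl estrus, 30.0 ± 6.62 in ctrl diestrus and 18.4 ± 4.84 in FL1 diestrus (SD, n = 5).

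F3, tissue factor on chromosome 3 (121723537 to 121735048), was low, with 1 to 66 counts per library. In FL1 it was 6.03, 5.38, 3.15, 4.59 and 5.25 CPM in estrus and 0.144, 3.13, 0.946, 0.71 and 1.17 CPM in diestrus. Every estrus library lay above every diestrus library, with the estrus replicate 3 and diestrus replicate 2 values almost equal. F3 was stronger expressed in estrus with a log2FC of 1.96 ± 0.48 (adjusted p = 0.0108), and the difference passed in all 10 fits without 1 library, with values of 1.67 to 2.71.

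In ctrl F3 was 3.89, 5.30, 2.22, 6.23 and 2.07 CPM in estrus and 3.41, 3.42, 1.35, 1.80 and 2.46 CPM in diestrus. The stages overlapped, the log2FC was 0.65 ± 0.39 (adjusted p = 0.474) and 0.80 without ctrl estrus replicate 5 (adjusted p = 0.301), and the interaction was 1.30 ± 0.65 (adjusted p = 0.441). Between the lines the log2FC of F3 was 0.29 ± 0.33 in estrus (adjusted p = 0.745), 0.14 without that library (adjusted p = 0.879), and -1.02 ± 0.54 in diestrus (adjusted p = 0.352). At these counts a line difference of this size in diestrus could not be told from the spread between libraries.

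Thbd, thrombomodulin on chromosome 2 (148404466 to 148408188), had group means of 38.4 ± 8.16 CPM in ctrl estrus, 41.8 ± 7.99 in FL1 estrus, 37.8 ± 8.15 in ctrl diestrus and 45.0 ± 4.83 in FL1 diestrus. Its log2FC for FL1 against ctrl was 0.11 ± 0.16 in estrus (adjusted p = 0.798) and 0.25 ± 0.14 in diestrus (adjusted p = 0.382), and for the stages 0.02 ± 0.17 in ctrl (adjusted p = 0.974) and -0.11 ± 0.13 in FL1 (adjusted p = 0.623). The ranges of the groups overlapped in all 4 comparisons. Plau, urokinase-type plasminogen activator on chromosome 14 (20836660 to 20843385), was 73.8, 80.6, 65.1, 67.8 and 38.6 CPM in ctrl estrus and 71.6, 83.0, 94.8, 92.2 and 118 CPM in FL1 estrus. Ctrl estrus replicate 5 was again the lowest library of its group. The log2FC between the lines was 0.49 ± 0.17 in estrus (adjusted p = 0.175), 0.36 (adjusted p = 0.166) without that library, and 0.12 ± 0.15 in diestrus (adjusted p = 0.763). Between the stages Plau had a log2FC of -0.15 ± 0.19 in ctrl (adjusted p = 0.787), -0.014 without that library (adjusted p = 0.98), and 0.23 ± 0.13 in FL1 (adjusted p = 0.266).

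Plaur, the urokinase receptor on chromosome 7 (24462484 to 24475968), had 0 to 17 counts per library. Its means were 1.47 ± 0.789 CPM in ctrl estrus, 1.32 ± 0.678 in FL1 estrus, 1.49 ± 0.869 in ctrl diestrus and 0.565 ± 0.547 in FL1 diestrus (SD, n = 5). It could be tested between the lines in estrus (log2FC -0.17 ± 0.50, adjusted p = 0.907) and between the stages in ctrl (0.00 ± 0.50, adjusted p = 0.999), but not in the comparisons with FL1 diestrus alone. Without ctrl estrus replicate 5 these values were -0.40 (adjusted p = 0.723) and 0.23 (adjusted p = 0.879). A difference was not detectable at this depth.

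Between the stages, 0 of 8 members tested were differentially expressed in ctrl, against 2.85% of 13334 genes (1.78% stronger and 1.06% weaker in estrus). By edgeR, Tfpi alone of the 8 members tested had an unadjusted p under 0.05, at 0.00262, against 2052 of 13334 genes under 0.05. DESeq2 called 1 member, Tfpi, against 771 of 15238 genes. Without ctrl estrus replicate 5 Plat and Tfpi passed, against 516 of 13541 genes. In FL1, 2 of 7 members, Plat and F3, were stronger and 0 weaker expressed in estrus, against 15.9% of 13350 genes (7.42% stronger and 8.49% weaker). Ranges of the stages did not overlap for Plat and F3 in FL1 (12.1% of genes tested) and for 0 members in ctrl (4.56%). For each of the 9 genes the 4 groups were put in order of their means, and in all 27 pairs of neighbours in that order the ranges overlapped.

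Cell type markers also moved with the stage in FL1. All 4 fibroblast markers (1236 to 1746 CPM in diestrus and 2302 to 3635 CPM in estrus), 3 of 4 surface epithelium markers (52.7 to 76.5 and 94.6 to 169 CPM) and 2 of 4 tested periovulatory granulosa and cumulus markers, Tnfaip6 and Adamts1 (29.4 to 44.3 and 108 to 219 CPM for the whole list), were stronger expressed in estrus. Weaker expressed in estrus were 4 of 6 endothelial markers (324 to 420 CPM in diestrus and 207 to 278 CPM in estrus), 4 of 4 erythrocyte markers, 2 of 3 theca markers and 4 of 6 luteal markers (Lhcgr, Star, Hsd3b1 and Ptgfr), while the luteal marker Parm1 was stronger expressed. Of 6 granulosa markers, Cyp19a1 and Foxl2 were weaker expressed in estrus. The smooth muscle markers Tagln and Cnn1 (2 of 4), the platelet marker Pf4 (1 of 2 tested) and the oocyte marker Bmp15 (1 of 6) were stronger expressed in FL1 estrus. In ctrl, 3 of 4 fibroblast markers were also stronger expressed in estrus. The median log2FC of that list was 0.90 in ctrl and 0.92 in FL1. Adamts1, Parm1, Cd68 and the smooth muscle markers Myh11 and Tagln were stronger expressed in ctrl estrus, while Lhcgr and Cyp17a1 were weaker expressed. Of the endothelial, erythrocyte, surface epithelium and granulosa markers, 0 passed between the stages in ctrl. The part of the cell type markers in the stage difference of Plat was not tested.

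The balance of activator to inhibitor was described by the log2 ratio of CPM within each library, without a test. Levels of different genes are not compared, only the same ratio between groups. The ratios are built from the values given above and are no independent support for them. How often ratios of other gene pairs separate the groups was not counted. Plat to Serpine2 was -5.59, -4.99, -5.55, -5.91 and -5.38 in FL1 diestrus, -4.62, -4.40, -3.89, -4.61 and -3.79 in ctrl diestrus, and -4.63, -4.58, -3.54, -3.60 and -3.68 in FL1 estrus. All FL1 diestrus libraries lay below all libraries of these other groups, and the FL1 diestrus mean was -5.49 ± 0.34 against -4.26 ± 0.40 in ctrl diestrus and -4.01 ± 0.55 in FL1 estrus (SD, n = 5). In ctrl estrus the ratio was -3.78, -3.56, -4.01, -3.21 and -5.49, and replicate 5 was the library that reached the FL1 diestrus range.

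The ratio of Plau to Serpine2 had means of -3.30 ± 0.36 in ctrl estrus, -3.25 ± 0.53 in FL1 estrus, -2.99 ± 0.57 in ctrl diestrus and -3.38 ± 0.35 in FL1 diestrus, with overlapping ranges in all groups. Plau to Plat was 2.11 ± 0.43 in FL1 diestrus and 0.75 ± 0.26 in FL1 estrus, without overlap, against 1.27 ± 0.37 and 0.71 ± 0.62 in ctrl. F3 to Tfpi was -3.50 ± 0.38 in FL1 estrus, -4.47 ± 0.73 in ctrl estrus, -4.62 ± 0.57 in ctrl diestrus and -5.74 ± 1.69 in FL1 diestrus, where replicate 1 with a single F3 count gave -8.50. The highest and the lowest mean of this ratio were thus both found in FL1, in estrus and in diestrus.

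**Figure D3:**
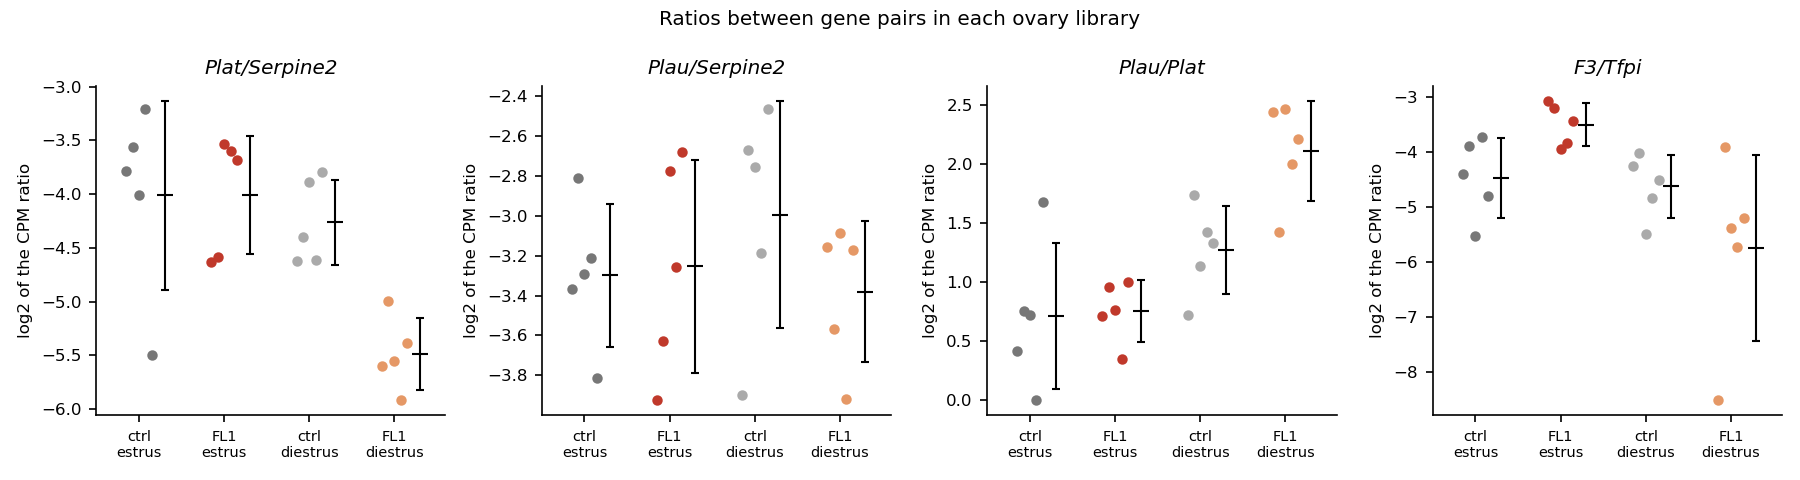
Log2 of the CPM ratio within each library (y axis) for 4 gene pairs in the 4 groups (x axis), with 1 point per library and a bar for the mean ± SD of 5 libraries. Plat to Serpine2 is lowest and Plau to Plat highest in FL1 diestrus, and Plau to Serpine2 has overlapping ranges in all groups.

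Other genes of the pathway were taken from a list of 47 genes in 8 roles. Between the lines in estrus 2 of the 29 tested were stronger and 1 was weaker expressed in FL1, against 1.07% and 1.26% of all genes tested. The weaker gene was Procr, the endothelial receptor for protein C, with 41.9 ± 8.47 CPM in ctrl and 20.2 ± 5.71 CPM in FL1 (log2FC -1.07 ± 0.20, adjusted p = 0.0114), and every FL1 library (12.5 to 28.6 CPM) lay below every ctrl library (32.9 to 53.5 CPM). Procr also had a log2FC of -1.22 ± 0.43 in diestrus (adjusted p = 0.145), with ctrl values from 11.4 to 89.2 CPM. The stronger genes were Serpini1 (neuroserpin, an inhibitor of Plat), with 12.1 ± 2.90 CPM in ctrl and 35.0 ± 10.2 CPM in FL1 (log2FC 1.53 ± 0.22, adjusted p = 0.00173), and A2m (alpha-2-macroglobulin, a broad protease inhibitor), with 1.23 ± 0.467 and 4.30 ± 1.20 CPM (log2FC 1.78 ± 0.36, adjusted p = 0.0186). The ctrl mean of A2m was below that of Plaur in ctrl estrus (1.47 CPM) and thus near the limit of detection. The A2m call was lost without FL1 estrus replicate 1 (adjusted p = 0.0579) or 5 (adjusted p = 0.0504). In 1 fit of all 20 libraries neither Procr (adjusted p = 0.113) nor A2m (adjusted p = 0.086) passed in estrus, while Serpini1 did.

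In diestrus 2 of 29 tested pathway genes were stronger and 0 weaker expressed in FL1, against 2.29% and 1.82% of all genes tested. F10, the clotting factor that tissue factor activates, was 6.80 ± 3.74 CPM in ctrl and 17.1 ± 4.86 CPM in FL1 (log2FC 1.35 ± 0.32, adjusted p = 0.0302). Itgb3, an integrin subunit that binds vitronectin and fibrinogen, was 34.9 ± 6.80 and 57.9 ± 13.4 CPM (log2FC 0.72 ± 0.17, adjusted p = 0.0318). The F10 call held in 5 of 10 fits without 1 library, and adjusted p-values were 0.06 without ctrl diestrus replicate 5, 0.0714 without ctrl replicate 2, 0.0675 without FL1 replicate 3, 0.0796 without FL1 replicate 4 and 0.0809 without FL1 replicate 1 and 0.141 in 1 fit of all 20 libraries. Itgb3 was lost without FL1 diestrus replicate 2 (0.0712), 3 (0.0871) or 4 (0.0854).

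Between the stages in ctrl, 1 of 31 tested pathway genes was stronger and 1 weaker expressed in estrus, against 1.78% and 1.06% of all genes tested. F10 was 1.24 ± 0.525 CPM in estrus and 6.80 ± 3.74 CPM in diestrus (log2FC -2.47 ± 0.44, adjusted p = 0.0105). Its estrus mean was below that of Plaur in ctrl estrus (1.47 CPM) and thus near the limit of detection. Plcb1, a phospholipase that acts behind the receptors, was 10.8 ± 1.07 and 5.50 ± 1.28 CPM (log2FC 0.97 ± 0.21, adjusted p = 0.027), and its call was lost in 7 of 10 fits without 1 library, with adjusted p-values up to 0.0711. The other 10 signal transducers passed in no comparison.

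In FL1, 8 of 29 tested pathway genes were stronger and 3 weaker expressed in estrus, against 7.42% and 8.49% of all genes tested, and the median log2FC of the 29 was 0.03, against 0.01 for all genes tested. Of 3 clotting factors tested, F13a1, which crosslinks fibrin, was stronger (log2FC 1.41 ± 0.21, adjusted p = 0.000246) and F10 (-2.40 ± 0.48, adjusted p = 0.00266) and F8 (-1.02 ± 0.22, adjusted p = 0.00425) were weaker expressed. F8 overlaps Fundc2 on the opposite strand, which has 24177 counts against 1146 for F8, and the strand setting of the counting is not given in the sources used here. All 3 passed in each fit without 1 library.

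Among proteins that hold plasminogen on the cell, 3 of 4 tested were stronger expressed in FL1 estrus, where 7.42% of all genes tested were: the receptor Plgrkt (log2FC 0.46 ± 0.12, adjusted p = 0.0164), S100a10 (0.38 ± 0.07, adjusted p = 0.00233) and Eno1 (0.89 ± 0.19, adjusted p = 0.00436). In 1 fit of all 20 libraries Plgrkt did not pass (adjusted p = 0.103). Eno1 shares 1238 words of 31 bases with the near-identical Eno1b, so its value is uncertain. Plg itself, made mainly by the liver, had no count in 18 of the 20 libraries and at most 4. Of 5 uptake and adhesion partners, Lrp1, which clears activators bound to inhibitors, had a log2FC of 0.40 ± 0.10 (adjusted p = 0.0133), and the collagen receptor Mrc2 had one of 0.78 ± 0.26 (adjusted p = 0.0497), lost in 6 of 10 fits without 1 library with adjusted p-values up to 0.119. Neither Lrp1 (adjusted p = 0.149) nor Mrc2 (adjusted p = 0.0685) passed in 1 fit of all 20 libraries.

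Of the other inhibitors of activators or plasmin, 2 were tested and changed with the stage in FL1, in opposite directions. Serpini1 was stronger expressed in FL1 estrus (log2FC 0.89 ± 0.19, adjusted p = 0.00406, and 0.0612 in 1 fit of all 20 libraries), and A2m was weaker (-1.82 ± 0.22, adjusted p = 2.84e-05). Tfpi2, an inhibitor of plasmin and related to Tfpi, had a log2FC of 1.23 ± 0.38 (adjusted p = 0.0354) and lost the call in 6 of 10 fits without 1 library, with adjusted p-values up to 0.0877, and with all genes of at least 1 count in total (0.0681). Tfpi2 had too few counts for the test between the lines in diestrus.

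The other receptors for thrombin were at the limit of detection. F2rl3 had 1 to 21 counts per library, with a log2FC of -1.40 ± 0.54 between the lines in diestrus (adjusted p = 0.18) and -0.99 ± 0.53 between the stages in ctrl (adjusted p = 0.416). F2rl2 had 0 to 17 counts and could not be tested. Thrombin itself (F2) had 0 to 9 counts. Averaged over both stages, 4 of 32 tested pathway genes were stronger expressed in FL1 and 1 weaker, against 3.7% and 3.86% of all genes tested. These were Serpini1 (log2FC 1.10 ± 0.22, adjusted p = 0.0024), A2m (1.50 ± 0.37, adjusted p = 0.0131), F10 (1.36 ± 0.38, adjusted p = 0.0287), Itgb3 (0.40 ± 0.12, adjusted p = 0.0456) and, weaker, Procr (-1.14 ± 0.26, adjusted p = 0.00746). The calls of F10 and Itgb3 held in 15 and 4 of 20 fits without 1 library, with adjusted p-values up to 0.0878 and 0.084, and F10 did not pass by limma-voom (0.12). No pathway gene of 32 tested had a line-by-stage interaction.

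**Figure D4:**
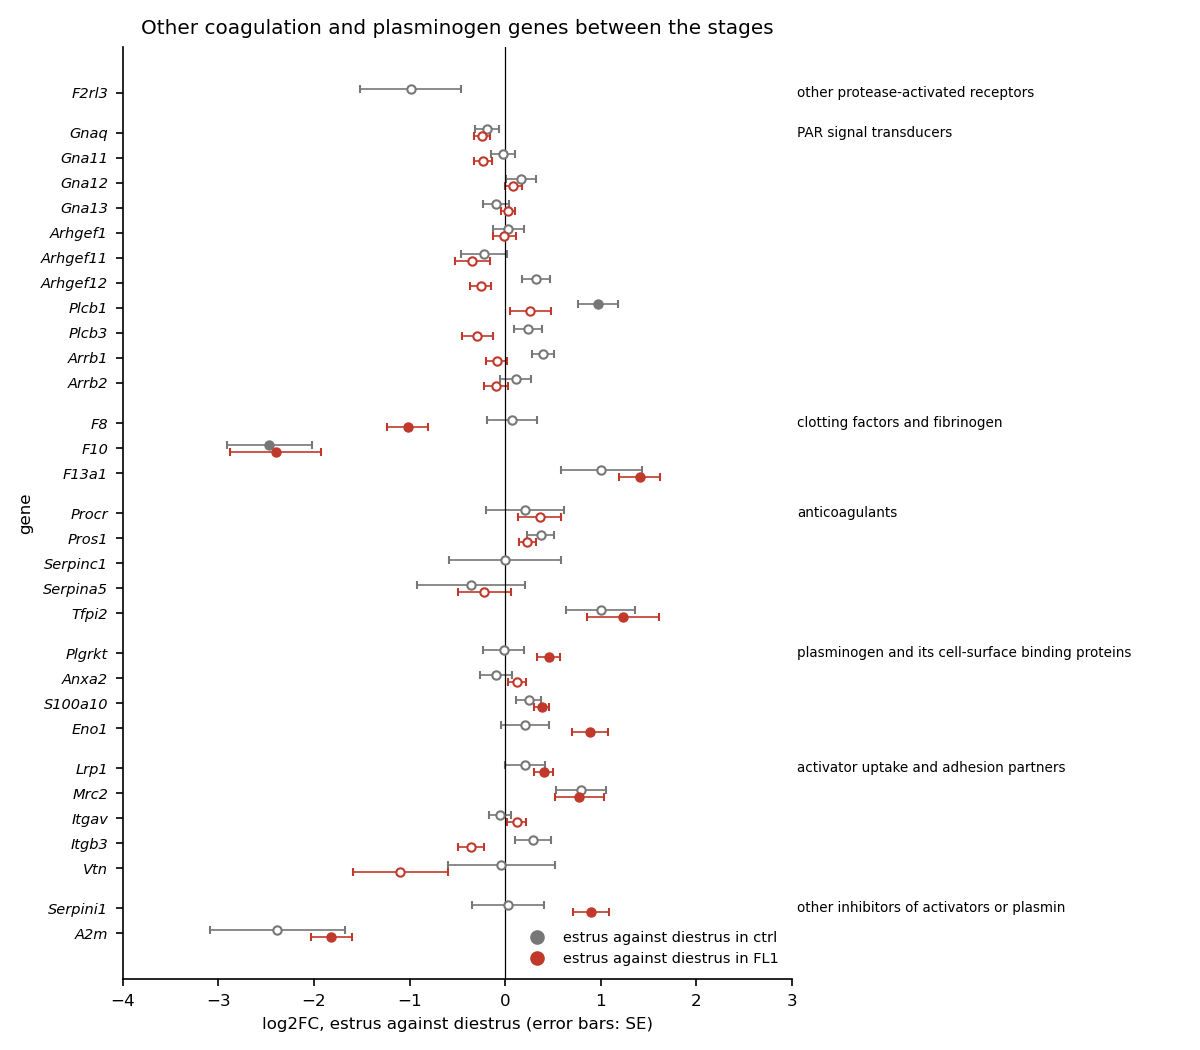
Log2FC for estrus against diestrus (x axis, with SE as error bars) in ctrl and in FL1 of the other pathway genes that could be tested (y axis), grouped by role, with filled symbols for an adjusted p of at most 0.05. In FL1, 8 genes lie to the right and 3 to the left with filled symbols, while in ctrl F10 and Plcb1 are filled.

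The genes with the most similar course over the 20 libraries were named for the 5 members that passed in a comparison, by Pearson's r of log2 CPM among 14154 genes. The libraries share line, stage and cell composition, so these values describe likeness only. Plat was most like Fzd1 (r = 0.909), Ctbp1 (r = 0.901) and Lix1l (r = 0.898). For Tfpi the closest were Agt (r = 0.861), Mfap2 (r = 0.857) and Enox1 (r = 0.857), and for Serpine2 they were Cdkn3 (r = 0.859), Aif1l (r = 0.837) and Reep4 (r = 0.837). F3 was closest to Sec22b (r = 0.849), Arl6 (r = 0.845) and Ssc5d (r = 0.843), and F2r to Abi1 (r = 0.827), 2610001J05Rik (r = 0.823) and Gemin6 (r = 0.821). No member was among the 3 genes closest to another member.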

How the data were processed

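Whole-ovary RNA was made into 3' libraries (QuantSeq 3' FWD). After trimming and alignment to GRCm38 with STAR, the authors deposited raw counts of uniquely assigned reads per Ensembl gene. The counting tool and strand setting are not given in the sources used here. A read stands for 1 transcript end, and no molecular identifiers are named, so amplification copies are counted.

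Symbols and positions came from GENCODE M21 (GRCm38), which holds 54809 of 54838 genes. No member overlaps another gene, and none has a copy that shares at least 50 words of 31 bases with the last 300 bases of its transcripts. Group labels came from the sample titles and characteristics, except that the source name reads FL1 for every library and was not used. The libraries of each group differed by more than counting noise. P-values set a difference between groups against the spread between animals within groups, with 5 animals in each. They cover animals of these lines and cannot tell selection from other differences between the lines.

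Counts were tested with edgeR's quasi-likelihood test (edgeR 4.0.16, R 4.3.3), with TMM normalization, low genes removed by filterByExpr (minimum count 10) and Benjamini-Hochberg adjustment over all genes tested (threshold 0.05). The SE was derived from log2FC and the F statistic. CPM used TMM factors over all 20 libraries, and log2 CPM a prior count of 2. Alternatives were DESeq2, limma-voom, DESeq2 size factors, other count filters, 1 fit of all libraries, a replicate block and leaving out each library. The scripts were tested on simulated data. Depth limits genes under about 10 counts per library, and a count of 0 allows up to 3.

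The members, lists and comparisons were chosen with earlier results of these data known. Named genes were the 9 members, the pathway genes past the threshold in any of 5 comparisons, F2rl2, F2rl3 and Plg, and for each member past the threshold the 3 genes with the highest Pearson's r. F2 was named after its values were seen. Another gene of the planned pathway list is not reported here, and the counts over the list leave it out.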

Additional observations from a re-analysis of the deposited data

Results flagged for a closer look

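Of 36 groups of 5 libraries (9 genes in 4 groups), 1 held a library far from the others by Dixon's test at its 95% critical value of 0.71: Thbd in ctrl estrus, where replicate 4 had 52.7 CPM and the other 4 libraries 32.6 to 36.6 CPM. Chance flags about 1 in 20 groups. No member had a line difference that passed an interaction test or ran in opposite directions in every library of the stages.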

How the results depend on the processing

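Of 917 values of the members under alternatives, 855 kept their direction and their side of the threshold, 29 lost significance, 11 gained it and 22 changed sign, and the cause was not tested. In estrus, 1 member differed between the lines (311 genes), against 2 (670 genes) by DESeq2, 0 (230 genes) where each library had to hold 10 counts or more, 477 genes with at least 1 count in total and 531 genes in 1 fit of all 20 libraries. In diestrus, 3 members differed (545 genes), against 1 in 1 fit of all libraries, and 891 genes by DESeq2 and 846 genes with at least 1 count in total. Between the stages in ctrl, 0 members differed (380 genes), against 1 by DESeq2 (771 genes) and 1 in the fit of all libraries (909 genes). In FL1, 2 members differed, against 1 under that filter, where F3 was not tested. The interaction was called for 8 genes, against 148 by DESeq2, 3 by limma-voom and 17 with at least 1 count in total. Leaving out each library in turn gave 0 to 1 members and 175 to 418 genes for the lines in estrus, 1 to 3 and 349 to 594 in diestrus, 0 to 2 and 176 to 516 for the stages in ctrl, 2 to 3 and 1582 to 2316 in FL1, 0 members and 0 to 15 genes for the interaction, and 3 members and 856 to 1150 genes for the lines over both stages. The highest counts in estrus and for the stages in ctrl came without ctrl estrus replicate 5. Signs changed only for small differences, with ranges without 1 library of -0.40 to 0.062 for Plaur between the lines in estrus, -0.12 to 0.15 for Thbd and -0.26 to 0.23 for Plaur between the stages in ctrl, and -0.26 to 0.0096 for Thbd and -0.12 to 0.085 for Serpine2 in the interaction. Plaur between the stages in ctrl was also -0.010 by DESeq2 and -0.0051 with at least 1 count in total, and the Serpine2 interaction 0.0057 under the filter of 10 counts. Same-numbered libraries are different animals, and their deviations correlated by -0.095 to 0.125 between the lines in estrus, with 1 of 5 pairs over 0.1 and 2 of the libraries closest to their own number, and by less in the other comparisons. A replicate block gave 0 members and 230 genes for the lines in estrus, where Tfpi had an adjusted p of 0.0974, 498 genes in diestrus, 259 and 2020 genes for the stages in ctrl and FL1, 12 for the interaction and 1017 for the lines over both stages. Of the pathway calls, A2m between the lines in estrus (adjusted p = 0.0702), Plcb1 between the stages in ctrl (0.0672), Tfpi2 (0.0703) and Mrc2 (0.0799) between the stages in FL1 and Itgb3 over both stages (0.07) did not pass with the block.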
